A study of Mus musculus with 9 samples.

Results

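The collagen genes measured in 9 skeletal muscles of the mouse are described here. They were all genes whose symbol in the array annotation is Col, a number, the letter a and a number, taken from probe sets that name 1 gene. This gave 44 of 22180 genes: 11 fibrillar collagens, 6 chains of type IV (basement membrane), 6 chains of type VI and 21 others. For a gene with several probe sets the one with the highest mean was used, which applied to Col1a2, Col5a1 and Col6a1. Their second probe sets, which were lower on average, had correlations of 0.84, 0.53 and 0.89 with the ones used over the 9 arrays. Col21a1 was not analysed here.

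RNA from frozen muscle of male C57BL/6J mice, an inbred laboratory strain, aged 12 weeks was hybridised to a whole-transcript array, with 1 array for each muscle. The series title concerns Hoxa10 and positional memory, the idea that adult muscle keeps a record of its place in the body, so the muscles were grouped by place. The hindlimb group (n = 4) was made up of rectus femoris from the thigh and of tibialis anterior, soleus and gastrocnemius from the lower leg. The shoulder and forelimb group held trapezius, supraspinatus and triceps (n = 3), and the head group held masseter and digastric (n = 2). The grouping rests on general anatomy, because the labels name the muscle alone. They give neither the number of animals nor whether RNA was pooled, and they name no treatment or mutation. Each SD and p-value below therefore measures the spread between different muscles of a region, in which muscle, animal and array cannot be told apart.

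Collagens are the main structural proteins of the extracellular matrix. Each molecule is a helix of alpha chains, and each chain is encoded by its own gene. Fibrillar collagens build the fibres of tendon and of the connective tissue around muscle, type IV collagens form the sheet-like network of basement membranes around muscle fibres and vessels, and type VI collagens form beaded filaments that tie these layers together. Other classes sit on fibril surfaces, cross the cell membrane or form networks. In muscle most collagen messenger RNA is known to come from fibroblasts and related cells between the fibres.

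The deposited values are log2 expression values, on which 1 unit is a 2-fold difference. They ran from 0.12 to 13.49 with array medians from 3.34 to 3.44. Skeletal muscle genes such as Acta1, Ckm and Des had a mean level of 11.75 to 12.21 over 8 listed markers on every array. On the arrays of rectus femoris, gastrocnemius and triceps the values were spread less (SD 1.92 to 1.96 over all probe sets) than on the other 6 (SD 2.03 to 2.08). These 3 arrays are called the narrower arrays and the other 6 the wider arrays. Because the split crosses the regions, main results are given for the wider arrays as well, which hold 2 muscles of each region. Of the genes of salivary glands, Klk1 stood at 7.28 in masseter and at no more than 1.93 elsewhere, and Bpifa2 at 3.74 in masseter and 5.16 in digastric, against 2.24 to 2.99 elsewhere. The other measured genes of the same list of keratinocyte and gland markers, Krt14, Krt15 and Epcam, were not raised in head muscles. They stood at 2.57 to 3.13 there and at 2.74 to 3.81 elsewhere. The part of Klk1 and Bpifa2 in the differences from head muscles was not tested. The values are of whole muscle, so fewer collagen-making cells and less RNA in each such cell cannot be told apart.

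Of the 44 collagen genes, 35 lay above the array's median on all 9 arrays. Col4a6 was below it on all of them, and 8 genes were above it on some. Values near or below the median cannot be told from background here, which limits what is said of Col4a3, Col4a6, Col6a4, Col6a5, Col9a1, Col10a1, Col11a1, Col19a1 and Col28a1. For Col11a1 this concerns the trapezius value. Col4a4, Col4a5, Col8a2, Col9a3 and Col25a1 stayed above the medians, but their lowest values (3.44 to 3.53) were close to them. Probe sets differ in affinity, so the level of one gene is not set against that of another.

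RefSeq start sites (mouse build GRCm38.p6) were matched for 35 of the 44 genes, with 38 windows of 250 bases before to 50 bases after the start. The windows of 4 genes are shown because their chains are compared below. Col4a1 and Col4a2 encode the chains that form the common type IV molecule. They lie on opposite strands of chromosome 8 with annotated starts 21 bases apart, so their windows share 78 bases, chr8:11312777-11312854, printed in capitals. The first is chr8:11312777-11313076 on the minus strand and the second chr8:11312555-11312854 on the plus strand.
Col4a1: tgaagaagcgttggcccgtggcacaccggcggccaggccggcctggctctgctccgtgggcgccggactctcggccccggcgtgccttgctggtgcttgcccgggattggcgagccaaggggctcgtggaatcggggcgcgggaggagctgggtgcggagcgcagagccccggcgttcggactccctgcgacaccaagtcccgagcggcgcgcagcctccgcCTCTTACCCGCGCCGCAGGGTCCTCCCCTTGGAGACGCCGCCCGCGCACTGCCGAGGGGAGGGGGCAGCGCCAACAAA
Col4a2: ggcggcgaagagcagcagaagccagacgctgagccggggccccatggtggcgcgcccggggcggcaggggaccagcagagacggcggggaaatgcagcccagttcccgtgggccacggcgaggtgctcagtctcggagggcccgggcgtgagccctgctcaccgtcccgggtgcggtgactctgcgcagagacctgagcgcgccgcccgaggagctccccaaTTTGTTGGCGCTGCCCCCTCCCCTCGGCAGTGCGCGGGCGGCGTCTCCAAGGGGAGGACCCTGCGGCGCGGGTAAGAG

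Col1a2 encodes the second chain of type I collagen, and Col3a1 encodes type III collagen. The Col1a2 window is chr6:4505368-4505667 on the plus strand, with 2 matches each to CCAAT and GGGCGG in capitals. The Col3a1 window is chr1:45311288-45311587 on the plus strand, with 1 match to TATAAA in capitals.
Col1a2: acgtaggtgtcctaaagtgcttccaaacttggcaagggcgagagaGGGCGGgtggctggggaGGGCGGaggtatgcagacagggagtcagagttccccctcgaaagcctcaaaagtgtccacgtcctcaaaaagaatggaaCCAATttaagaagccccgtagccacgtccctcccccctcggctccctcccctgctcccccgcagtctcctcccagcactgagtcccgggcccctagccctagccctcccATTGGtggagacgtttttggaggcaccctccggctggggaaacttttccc
Col3a1: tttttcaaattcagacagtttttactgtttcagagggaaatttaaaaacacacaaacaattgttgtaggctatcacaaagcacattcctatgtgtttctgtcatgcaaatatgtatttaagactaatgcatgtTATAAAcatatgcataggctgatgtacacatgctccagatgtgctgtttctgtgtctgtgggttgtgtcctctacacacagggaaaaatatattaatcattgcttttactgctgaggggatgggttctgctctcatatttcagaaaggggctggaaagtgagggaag
CCAAT and GGGCGG were searched on both strands and TATAAA on the given strand. Windows were counted singly, although those of Col4a1 and Col4a2 share a GGGCGG match and 3 genes have 2 windows each. CCAAT was found in 13 of the 38 collagen windows (34.2%), against 37.4% of all 32841 windows. GGGCGG was found in 23 collagen windows (60.5%), against 35.7% of all windows. TATAAA was found in 5 collagen windows (13.2%), against 8.32% of all windows. A match describes the letters only. Col4a5 and Col4a6, also on opposite strands, had starts 1343 bases apart and windows that did not overlap.

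Across the 9 muscles masseter most often held the lowest collagen value and rectus femoris the highest. Masseter held the lowest value for 22 of 44 collagens, against 15.6% of all genes, and trapezius for 9 (20.5%), against 7.76%. Rectus femoris held the highest value for 20 (45.5%), against 15.8% of all genes. Gastrocnemius held the highest value for 8 (18.2%, against 18.1% of all genes) and triceps for 6 (13.6%, against 14.1%), which is near the background. The 3 narrower arrays together held the highest value for 34 collagens (77.3%), against 47.9% of all genes. Among the 6 wider arrays tibialis anterior was highest for 14 (31.8%, against 15.7% of all genes) and supraspinatus for 12 (27.3%, against 14.6%). Soleus was highest for 9 (20.5%, against 17.9%), near the background, and masseter was lowest for 23 (52.3%, against 20%).

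**Figure D1:**
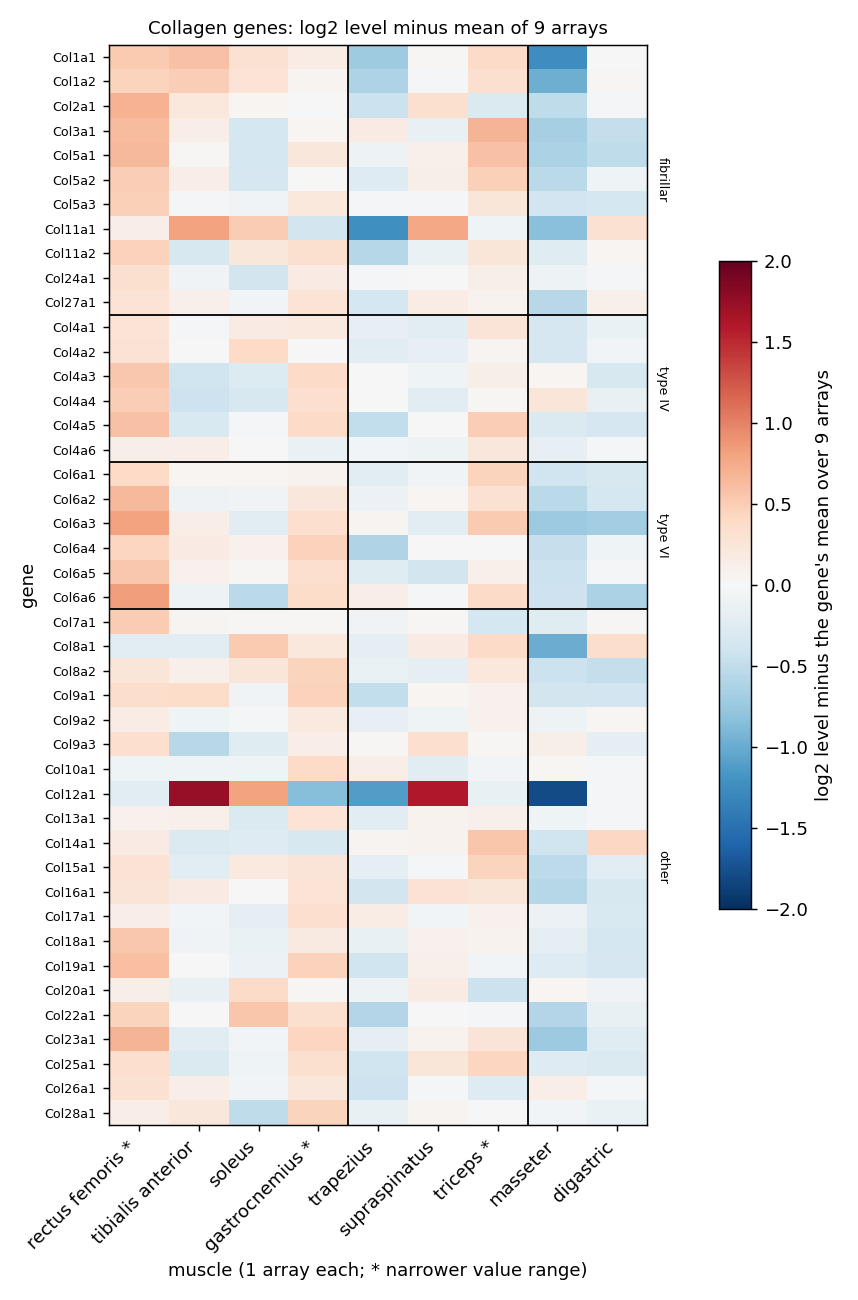
Each row is 1 of the 44 collagen genes and each column 1 muscle array. The colour is the log2 level minus the gene's mean over the 9 arrays, from blue (below) to red (above), and asterisks mark the 3 narrower arrays. Masseter is blue for most fibrillar and type VI genes, rectus femoris is red for most genes, and Col12a1 has the strongest colours.

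The 4 types were followed by the mean deviation of their members. The fibrillar genes lay on average 0.46 above their own means in rectus femoris, 0.19 above in tibialis anterior and 0.25 above in triceps. They lay 0.61 below in masseter and 0.38 below in trapezius, while digastric was at -0.09. All 11 fibrillar genes were lower in masseter than in digastric, with a median difference of -0.45, against 50.8% of all genes that were lower in masseter. The type VI genes lay 0.61 above their means in rectus femoris, and 0.50 below in masseter and 0.36 below in digastric. For type IV the averages ran from -0.17 (tibialis anterior and digastric) to 0.39 (rectus femoris).

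**Figure D2:**
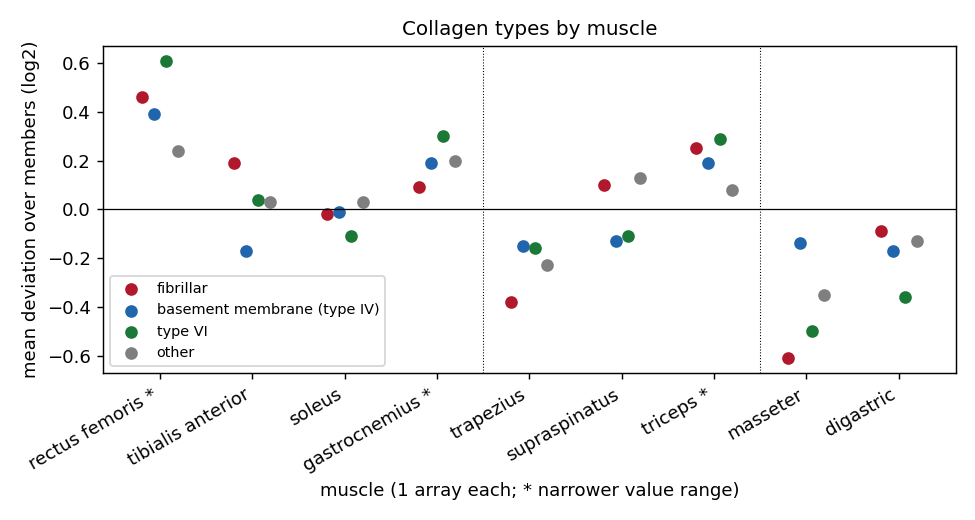
The mean deviation of the members of each collagen type from their own 9-array means (log2) is plotted by muscle, with hindlimb at left, shoulder and forelimb in the middle and head at right. Fibrillar genes are lowest in masseter (-0.61) and trapezius (-0.38), and type VI genes are low in both head muscles (-0.50 and -0.36).

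Hindlimb values are given below in the order rectus femoris, tibialis anterior, soleus, gastrocnemius. Shoulder and forelimb values are in the order trapezius, supraspinatus, triceps, and head values in the order masseter, digastric.

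Type I collagen, the main protein of tendon and of muscle connective tissue, is made of the Col1a1 and Col1a2 chains. Col1a1 had 10.38, 10.45, 10.16 and 10.01 in hindlimb muscles, 9.15, 9.88 and 10.25 in shoulder and forelimb muscles, and 8.62 and 9.86 in head muscles. All 4 hindlimb values were above both head values, and masseter stood far below digastric. Col1a2 had 9.80, 9.85, 9.63 and 9.40 in hindlimb muscles, 8.73, 9.33 and 9.67 in shoulder and forelimb muscles, and 8.37 and 9.37 in head muscles. The order of the muscles was close to that of Col1a1, with a correlation of 1.0 over the 9 arrays, and gastrocnemius (9.40) barely passed digastric (9.37). On the dimmer second probe set of Col1a2 hindlimb and head overlapped, with gastrocnemius (6.46) and rectus femoris (6.96) below digastric (7.12).

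Col3a1 encodes type III collagen, the finer fibres found around muscle fibres and vessels. It had 10.15, 9.66, 9.17 and 9.56 in hindlimb muscles, 9.68, 9.37 and 10.21 in shoulder and forelimb muscles, and 8.86 and 9.05 in head muscles. Both head muscles were below all 7 others, and the hindlimb and the shoulder and forelimb values overlapped. Unlike Col1a1, it was higher in trapezius than in soleus and supraspinatus.

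Type V collagen is a minor component inside type I fibrils and sets their diameter. Col5a1 had 7.65, 7.02, 6.64 and 7.22 in hindlimb muscles, 6.89, 7.10 and 7.58 in shoulder and forelimb muscles, and 6.36 and 6.49 in head muscles. Both head values were again the lowest, with soleus next. On the dimmer second probe set of Col5a1 this did not hold. There rectus femoris (3.78) and gastrocnemius (3.82) were below digastric (3.84), so hindlimb and head overlapped. Its partner chain Col5a2 had 6.62, 6.26, 5.80 and 6.12 in hindlimb muscles, 5.88, 6.25 and 6.61 in shoulder and forelimb muscles, and 5.60 and 6.05 in head muscles. Here soleus and trapezius were below digastric, so the groups overlapped. Col5a3, a further chain of type V, had 6.71, 6.20, 6.16 and 6.45 in hindlimb muscles, 6.20, 6.19 and 6.48 in shoulder and forelimb muscles, and 5.86 and 5.88 in head muscles, the head values being the 2 lowest.

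Col11a1 encodes a chain of type XI collagen, which is best known from the fibrils of cartilage. It had 4.52, 5.19, 4.90 and 4.02 in hindlimb muscles, 3.17, 5.17 and 4.31 in shoulder and forelimb muscles, and 3.55 and 4.70 in head muscles. Tibialis anterior and supraspinatus were highest and trapezius lowest, below that array's median, and every region overlapped with the others. Its SD over the 9 arrays was 0.70, and 2.34% of all genes had a larger one. Col2a1, the main collagen of cartilage, ranged from 4.70 in masseter to 5.90 in rectus femoris. Col11a2, Col24a1 and Col27a1, of which the first pairs with Col11a1 and the others are minor fibrillar collagens, had SDs of 0.34, 0.19 and 0.28.

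Col4a1 and Col4a2 encode the chains of the common type IV molecule. Col4a1 had 7.72, 7.40, 7.60 and 7.64 in hindlimb muscles, 7.28, 7.22 and 7.69 in shoulder and forelimb muscles, and 7.10 and 7.31 in head muscles. Col4a2 had 7.34, 7.06, 7.45 and 7.06 in hindlimb muscles, 6.84, 6.88 and 7.10 in shoulder and forelimb muscles, and 6.71 and 7.0 in head muscles. For both genes all hindlimb values were above both head values but the closest pairs were 7.40 against 7.31 for Col4a1 and 7.06 against 7.0 for Col4a2. Each had an SD of 0.23 over the 9 arrays. The remaining chains are typical of kidney and other specialised basement membranes. Col4a3 ranged from 3.25 to 4.20 and Col4a4 from 3.44 to 4.35, both lowest in tibialis anterior and highest in rectus femoris. Col4a5 ranged from 3.44 in trapezius to 4.52 in rectus femoris, and Col4a6 from 2.79 to 3.18.

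Type VI collagen is made of Col6a1, Col6a2 and a further chain that is usually Col6a3. Mutations in the human genes cause muscular dystrophies. Col6a3 had 8.44, 7.78, 7.42 and 7.98 in hindlimb muscles, 7.70, 7.43 and 8.16 in shoulder and forelimb muscles, and 6.91 and 6.95 in head muscles. The head muscles lay close together and below all 7 others, soleus being the lowest hindlimb muscle. Col6a1 had 8.41, 8.04, 8.05 and 8.08 in hindlimb muscles, 7.79, 7.94 and 8.45 in shoulder and forelimb muscles, and 7.61 and 7.69 in head muscles. Col6a2 had 8.19, 7.44, 7.47 and 7.77 in hindlimb muscles, 7.43, 7.58 and 7.85 in shoulder and forelimb muscles, and 7.01 and 7.19 in head muscles. For each of these chains both head muscles were the lowest of the 9, also on the second probe set of Col6a1.

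Col6a6, an alternative to Col6a3, had 6.40, 5.47, 5.02 and 5.93 in hindlimb muscles, 5.70, 5.54 and 5.94 in shoulder and forelimb muscles, and 5.15 and 4.93 in head muscles. Soleus lay between the head muscles, so hindlimb and head overlapped, while all shoulder and forelimb values were above the head. Col6a4 and Col6a5, the other alternatives to Col6a3, were near or below the array median. Col6a4 ranged from 3.28 to 3.65 in hindlimb muscles, from 2.60 to 3.21 in shoulder and forelimb muscles, and stood at 2.73 and 3.11 in head muscles. Col6a5 ranged from 3.10 to 3.61 in hindlimb muscles, from 2.70 to 3.18 in shoulder and forelimb muscles, and stood at 2.65 and 3.03 in head muscles.

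Col12a1 varied most of all collagens. It encodes type XII, a collagen that sits on the surface of fibrils in dense connective tissue such as tendon and fascia. It had 5.47, 7.44, 6.50 and 4.84 in hindlimb muscles, 4.57, 7.29 and 5.55 in shoulder and forelimb muscles, and 3.91 and 5.67 in head muscles. Tibialis anterior and supraspinatus were highest and masseter lowest, an 11.5-fold range, and every region overlapped with the others. Its SD of 1.20 was exceeded by 0.225% of all genes. It exceeded the mean of the other 8 arrays by 1.97 in tibialis anterior, 1.80 in supraspinatus and 0.90 in soleus, and was 0.96 below it in gastrocnemius.

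Col14a1 encodes type XIV, another collagen of fibril surfaces. It had 5.89, 5.44, 5.46 and 5.41 in hindlimb muscles, 5.78, 5.80 and 6.28 in shoulder and forelimb muscles, and 5.32 and 6.14 in head muscles. Triceps and digastric were highest, and 3 of the 4 hindlimb muscles were below all shoulder and forelimb muscles. Col22a1 encodes type XXII, a collagen of tissue junctions that lies at the muscle to tendon junction. It had 5.53, 5.09, 5.64 and 5.41 in hindlimb muscles, 4.50, 5.10 and 5.05 in shoulder and forelimb muscles, and 4.50 and 4.94 in head muscles. All hindlimb values were above both head values, soleus was highest, and masseter and trapezius shared the lowest value.

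Col8a2 encodes a chain of type VIII, a network collagen best known from the cornea and vessel walls. It had 4.26, 4.12, 4.25 and 4.45 in hindlimb muscles, 3.88, 3.81 and 4.23 in shoulder and forelimb muscles, and 3.58 and 3.53 in head muscles. The head muscles were below all others. Its partner chain Col8a1 ranged from 3.95 in masseter to 5.46 in soleus, with digastric at 5.29. Col16a1, a fibril-associated collagen, had 5.16, 5.07, 4.91 and 5.17 in hindlimb muscles, 4.54, 5.20 and 5.15 in shoulder and forelimb muscles, and 4.34 and 4.59 in head muscles. All hindlimb values were above both head values, and trapezius lay between the head values.

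Col15a1 and Col18a1 encode collagens of the basement membrane zone. Col15a1 had 6.37, 5.85, 6.28 and 6.33 in hindlimb muscles, 5.90, 6.05 and 6.52 in shoulder and forelimb muscles, and 5.56 and 5.86 in head muscles. Digastric (5.86) was just above tibialis anterior (5.85), so hindlimb and head overlapped. Col18a1, the source of the fragment endostatin, ranged from 4.50 to 5.17 in hindlimb muscles, from 4.48 to 4.72 in shoulder and forelimb muscles, and stood at 4.44 and 4.27 in head muscles.

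The membrane-spanning collagens are Col13a1, Col17a1, Col23a1 and Col25a1, of which Col13a1 is known from the neuromuscular junction and Col25a1 from the motor innervation of muscle. Col23a1 ranged from 4.91 to 5.82 in hindlimb muscles, from 4.96 to 5.40 in shoulder and forelimb muscles, and stood at 4.42 and 4.90 in head muscles. Col13a1 stayed between 4.64 in soleus and 5.20 in gastrocnemius. Col17a1 stayed between 3.98 in digastric and 4.63 in gastrocnemius, and Col25a1 between 3.44 in trapezius and 4.26 in triceps.

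Type IX collagen decorates cartilage fibrils. Col9a1 had 4.05, 4.07, 3.63 and 4.16 in hindlimb muscles, 3.21, 3.74 and 3.78 in shoulder and forelimb muscles, and 3.33 and 3.32 in head muscles. Col9a2 ranged from 5.60 to 5.97, one of the smallest SDs (0.13), and Col9a3 from 3.45 in tibialis anterior to 4.35 in supraspinatus. Col7a1, the anchoring fibril collagen of skin, ranged from 3.99 in triceps to 4.84 in rectus femoris. Col10a1, a marker of hypertrophic cartilage, ranged from 2.98 to 3.59. Col19a1 and Col20a1 belong to the fibril-associated class, and Col26a1 and Col28a1 are less studied collagens. Col19a1 ranged from 2.79 in trapezius to 3.80 in rectus femoris, Col20a1 from 3.74 in triceps to 4.54 in soleus, Col26a1 from 4.04 in trapezius to 4.76 in rectus femoris, and Col28a1 from 2.99 in soleus to 3.94 in gastrocnemius.

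**Figure D3:**
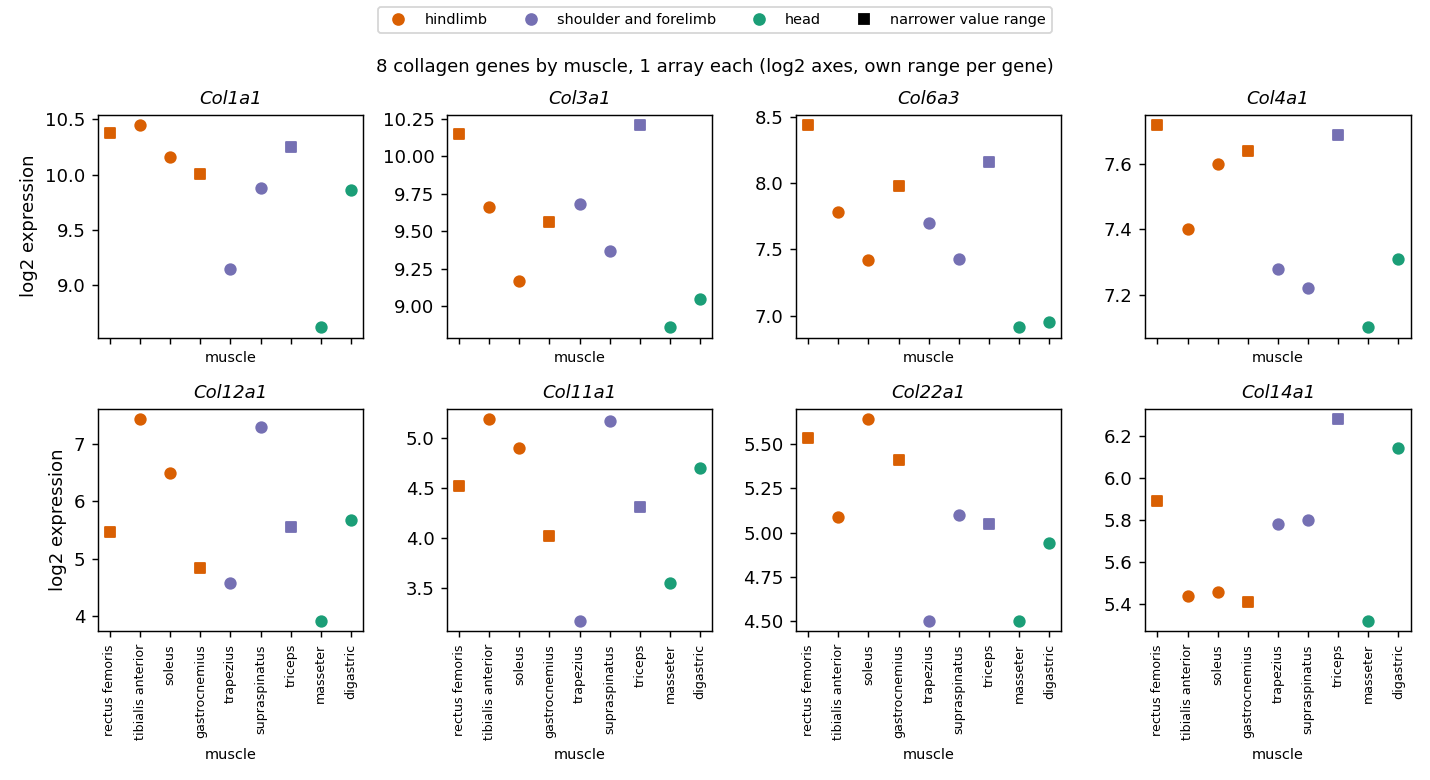
The log2 level of 8 collagen genes is plotted by muscle, 1 point for each array, with hindlimb, shoulder and forelimb, and head in that order and squares for the narrower arrays. Each panel has its own axis, which does not start at 0. Col6a3 and Col3a1 are lowest in both head muscles, while Col12a1 and Col11a1 are highest in tibialis anterior and supraspinatus.

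The first comparison asks whether collagen levels differ between hindlimb and head muscles. No collagen passed the limma test after Benjamini-Hochberg adjustment over all 22180 genes at 0.05 (0 of 44), and 2 of all genes did (0.00902%). The direction was nearly uniform: 41 of 44 collagens were higher in hindlimb muscles, with a median difference of 0.43, against 55.0% and 0.04 over all genes. Among the brighter genes, those whose mean was above that of the median gene, the figures were 42.0% and -0.08. An unadjusted p below 0.05 was found for 17 collagens higher in hindlimb, against 5.45% of all genes, and for 0 lower, against 6.49%. On the probe sets used, every hindlimb value was above both head values for 20 collagens, against 11.4% of all genes. On the second probe sets of Col1a2 and Col5a1, which are among them, this did not hold. For 0 the reverse held, against 9.78% of all genes. The 17 and the 20 both include Col6a4, Col6a5, Col9a1 and Col19a1, whose values were near or below the array median on some arrays.

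By type, the median hindlimb minus head difference was 0.59 for type VI (6 of 6 positive) and 0.51 for fibrillar collagens (11 of 11). It was 0.35 for the other collagens (19 of 21) and 0.29 for type IV (5 of 6). The type VI genes include Col6a4 and Col6a5, which were near or below the array median. With the 6 wider arrays alone, the median was 0.38 for type VI, 0.40 for fibrillar, 0.15 for other and 0.16 for type IV collagens. Over all 44 collagens it was 0.27 on these arrays, with 34 positive, against 0.0 and 10967 of 22180 over all genes. The fibrillar median was 0.28 without masseter and 0.74 without digastric. Of the 6 genes with the largest moderated statistic, Col8a2 averaged 4.27 ± 0.14 in hindlimb muscles (SD, n = 4) and 3.56 ± 0.03 in head muscles (SD, n = 2). The difference was 0.71 (SE 0.17, limma adjusted p = 0.35). The head values of Col8a2, 3.58 and 3.53, were close to the medians of those arrays (3.37).

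Col6a3 averaged 7.90 ± 0.43 in hindlimb muscles (SD, n = 4) and 6.93 ± 0.02 in head muscles (SD, n = 2). Its difference was 0.97 (SE 0.28, limma adjusted p = 0.364), and 0.67 on the wider arrays. Col1a1 averaged 10.25 ± 0.20 in hindlimb muscles (SD, n = 4) and 9.24 ± 0.88 in head muscles (SD, n = 2), a difference of 1.01 (SE 0.36, limma adjusted p = 0.383). That difference was 0.39 without masseter and 1.63 without digastric. Col9a1, Col22a1 and Col16a1 differed by 0.65, 0.70 and 0.61 (SE 0.21, 0.23 and 0.21), each with a limma adjusted p of 0.381. Col12a1 had the largest difference, 1.27, with a 95% interval from -0.57 to 3.11. It was 2.18 on the wider arrays and 1.89 with the value range as a block. The genes below 0 were Col14a1 (-0.18), Col9a3 (-0.05) and Col4a4 (-0.02).

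**Figure D4:**
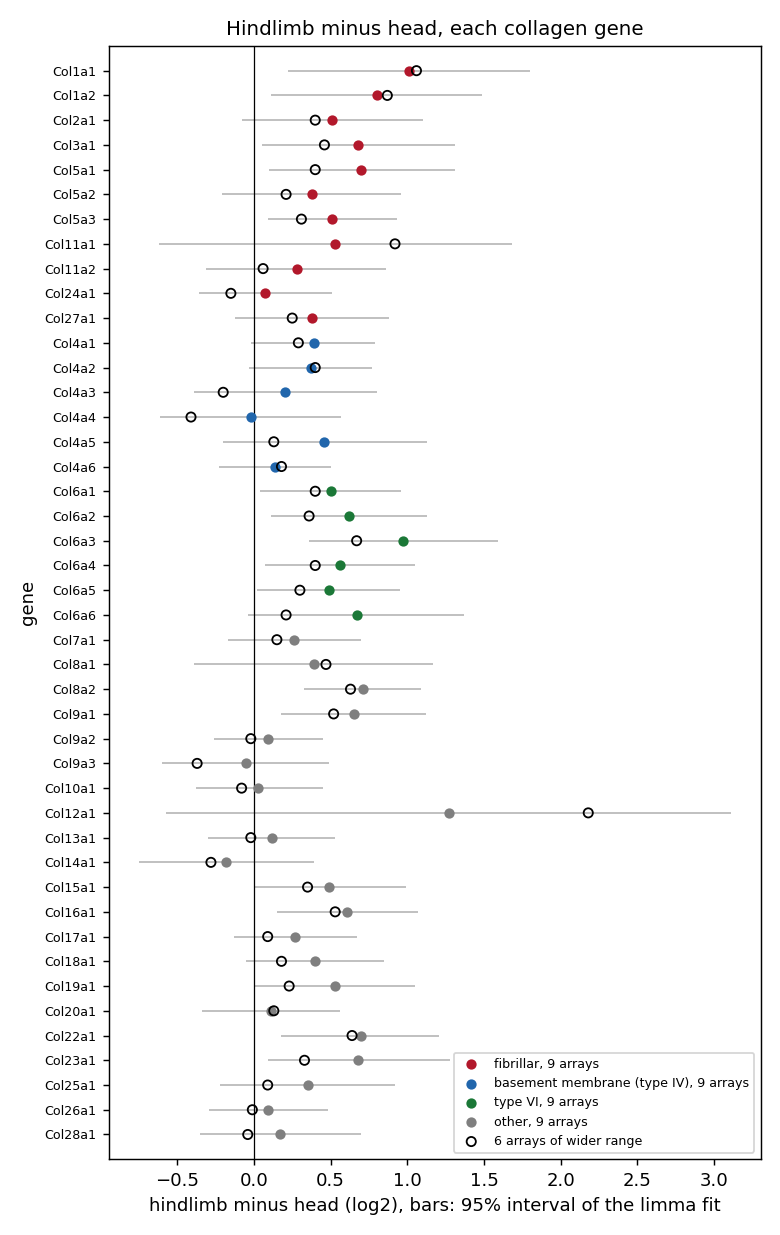
Hindlimb minus head differences (log2) of the 44 collagen genes are plotted with the 95% interval of the limma fit over 9 arrays. Open circles give the difference on the 6 wider arrays. All but 3 filled points lie above 0, and the widest interval is that of Col12a1 (-0.57 to 3.11).

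The second comparison sets hindlimb against shoulder and forelimb muscles, where the differences were smaller. No collagen was called by limma (0 of 44), and 1 of all genes was (0.00451%). The median difference was 0.12, with 34 of 44 positive, against -0.01 and 48.2% over all genes. On the wider arrays the median was 0.08, with 26 of 44 positive, against -0.01 and 10851 of 22180 over all genes. An unadjusted p below 0.05 was found for 4 collagens higher in hindlimb, against 1.84% of all genes, and for 0 lower, against 1.81%. Only Col6a4 did not overlap between the groups, 1 of 44, against 2.32% of all genes, which is near the background, and 0 lay wholly below, against 2.3%.

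Col22a1 had the largest moderated statistic there. It averaged 5.42 ± 0.24 in hindlimb muscles (SD, n = 4) and 4.88 ± 0.33 in shoulder and forelimb muscles (SD, n = 3), a difference of 0.53 (SE 0.20). Col26a1, Col6a4, Col6a5, Col9a1 and Col8a2 differed by 0.38, 0.47, 0.42, 0.40 and 0.30. All 6 had a limma adjusted p of 1.0. The largest difference below 0 was that of Col14a1, at -0.40 (SE 0.23). The type medians were 0.19 for fibrillar and 0.12 each for type IV, type VI and other collagens. Without trapezius they were 0.04, 0.09, 0.05 and 0.04 in that order of types, and without rectus femoris the type IV and type VI medians were 0.00 and -0.02.

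The third comparison sets shoulder and forelimb against head muscles. No collagen and no other gene was called by limma (0 of 44, 0.0% of all genes). At an unadjusted p below 0.05, 5 collagens were higher in shoulder and forelimb muscles, against 3.17% of all genes (702), and 0 were lower, against 3.75% (832). The median difference was 0.21 with 37 of 44 positive, against 0.04 and 55.5% over all genes. On the wider arrays it was 0.14, with 36 of 44 positive, against 0.01 and 11575 of 22180 over all genes. For 12 collagens every shoulder and forelimb value was above both head values, against 15.2% of all genes, and for 0 the reverse held, against 14.7%. The 12 included Col3a1, Col5a1, Col5a3 and 4 of the 6 type VI chains.

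Col6a3 averaged 7.76 ± 0.37 in shoulder and forelimb muscles (SD, n = 3) and 6.93 ± 0.02 in head muscles (SD, n = 2), a difference of 0.84 (SE 0.29). Col3a1 and Col5a1 differed by 0.80 and 0.76 (SE 0.30 and 0.29), and these 3 genes had a limma adjusted p of 0.718. Col8a2, Col16a1 and Col6a2 differed by 0.42, 0.50 and 0.52, with a limma adjusted p of 0.72 each. The type medians were 0.47 for type VI, 0.37 for fibrillar, 0.22 for other and 0.14 for type IV collagens. The fibrillar median was -0.09 without masseter and 0.65 without digastric, so its sign depended on masseter. Without triceps, the one narrower array of the group, it was 0.22, and the type VI median was 0.31.

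The chains of one molecule were set side by side over the 9 arrays, which share the labelling, the normalization and the split in value range. Besides Col1a1 with Col1a2 (1.0), the correlation was 0.91 for Col5a1 with Col5a2 (0.78 on the 6 wider arrays). It was 0.92 for Col6a1 with Col6a2, 0.90 for Col6a1 with Col6a3 and 0.94 for Col6a2 with Col6a3, and 0.84, 0.74 and 0.80 for these pairs on the wider arrays. Col4a1 and Col4a2, whose shared start region is printed above, had a correlation of 0.83, which ran from 0.75 to 0.89 with 1 array left out and was 0.98 on the 6 wider arrays. Col4a3 with Col4a4 had 0.94 (0.86 on the wider arrays), and Col4a5 with Col4a6 had 0.41 (-0.05). For the type IX chains it was 0.63 for Col9a1 with Col9a2, 0.28 for Col9a2 with Col9a3 and 0.02 for Col9a1 with Col9a3. On the wider arrays these pairs had 0.06, -0.31 and -0.46. Col11a1 with Col11a2 had 0.31 (0.60 on the wider arrays), and Col8a1 with Col8a2 had 0.39, also 0.39 on the wider arrays. Over all 946 pairs of collagens the median correlation was 0.51, and within type VI it was 0.77.

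In the correlations 2 patterns could be described over all 9 arrays. Col12a1 and Col11a1 had a correlation of 0.92 (0.90 to 0.97 with 1 array left out, and 0.93 on the wider arrays). Col6a3 went with Col3a1 (0.95, also 0.95 on the wider arrays). Of all collagens it had its highest correlation with Col5a3 (0.98), a value given over the 9 arrays only. Col5a3 itself varied little (SD 0.28, exceeded by 44.2% of all genes). Between the patterns, Col12a1 had 0.09 with Col6a3 and 0.11 with Col3a1, but 0.50 and 0.42 on the wider arrays. Col1a1 had 0.69 with Col12a1 and 0.62 with Col6a3. On the wider arrays these values were 0.92 and 0.47. These are descriptions of 9 points, and no test was made of them.

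Markers of tendon and of the muscle to tendon junction varied between muscles as well. In hindlimb minus head 7 of the 10 were positive (70.0%, against 55.0% of all genes). Thbs4 was at 1.34 and Cilp2 at 0.78, while Tigd4 was at -1.44. Egr1, another of the 10, was highest in gastrocnemius (5.20) and masseter (5.14). The mean level of the 10 markers ran from 5.38 to 6.22 in hindlimb muscles, from 4.52 (trapezius) to 5.40 in shoulder and forelimb muscles, and was 4.34 in masseter and 5.84 in digastric. Thbs4, a matrix protein of tendon, had 8.51, 8.40, 9.40 and 8.25 in hindlimb muscles, 6.64, 8.20 and 8.23 in shoulder and forelimb muscles, and 6.37 and 8.23 in head muscles. Masseter and trapezius, the muscles with the lowest Col1a1, were the lowest for Thbs4 too. Of the 10 markers, 2 were above their own 9-array mean in masseter. In trapezius this held for 1, Ankrd1, which was highest there (7.02). The marker mean had a correlation of 0.81 with Col22a1, 0.80 with Col11a1, 0.78 with Col1a1 and 0.67 with Col12a1. It had 0.08 with Col6a3 and 0.00 with Col3a1. On the wider arrays these values were 0.92, 0.83, 0.87, 0.72, 0.08 and -0.02 in the same order of genes. The part of tendon in the differences was not tested.

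**Figure D5:**
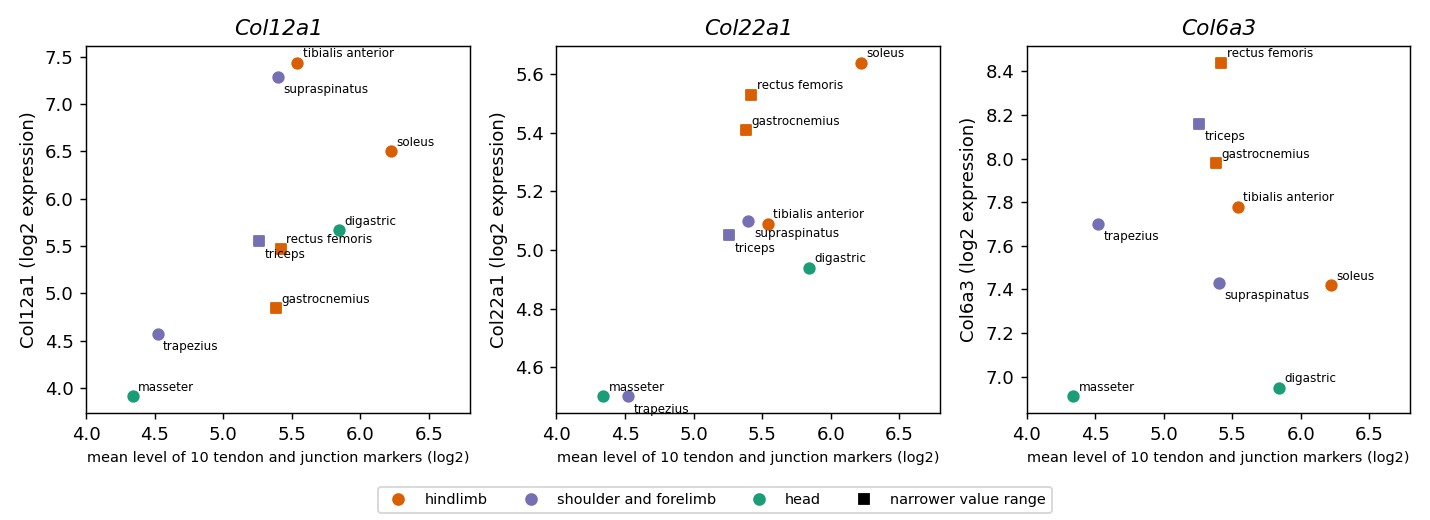
The log2 level of Col12a1, Col22a1 and Col6a3 is plotted against the mean log2 level of 10 tendon and junction markers, 1 point for each of the 9 muscle arrays, with squares for the narrower arrays. Masseter and trapezius are at the left of each panel, soleus at the right, and the points of Col6a3 show no common slope (correlation 0.08).

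Other cell types were followed by their marker lists. The 9 fibroblast markers measured, among them Pdgfra and Dpt, had mean levels of 6.00 to 6.22 in hindlimb, 6.19 to 6.50 in shoulder and forelimb and 6.06 to 6.20 in head muscles. The hindlimb and head ranges overlapped. Among the 9 collagens set against this list Col14a1 had the highest correlation (0.85, and 0.76 on the wider arrays). Col6a3 had 0.38, and -0.17 on the wider arrays. The 10 endothelial markers had mean levels of 5.69 to 6.68 in hindlimb, 5.92 to 6.14 in shoulder and forelimb and 6.51 to 6.74 in head muscles. They had a correlation of -0.87 with Col6a3 and -0.83 with Col3a1, and -0.64 and -0.72 on the wider arrays.

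The 6 myeloid markers had mean levels of 5.22 to 5.67 in hindlimb, 5.35 to 6.22 in shoulder and forelimb, and 4.69 and 5.03 in head muscles. The adipocyte markers had their highest mean in trapezius (7.24), against 4.65 to 5.59 elsewhere. The 9 cartilage and bone markers had mean levels of 3.04 to 3.46 in hindlimb, 2.77 to 3.39 in shoulder and forelimb, and 2.82 and 3.0 in head muscles. In hindlimb minus head 6 of the 9 were positive (66.7%, against 55.0% of all genes), with Sox9 at 0.96 and Acan at 0.44, while Bglap was at -0.35. In shoulder and forelimb minus head Acan was at 0.62 and Bglap at -0.69. Acan (2.71 to 3.91) and Bglap (2.52 to 3.43) lay near or below the array medians on most arrays, where values cannot be told from background. Matn1, a cartilage gene, was at no more than 2.55. Sox9, a transcription factor of cartilage and tendon, ranged from 4.73 to 6.00 in hindlimb, from 4.48 to 4.97 in shoulder and forelimb, and stood at 4.33 and 4.48 in head muscles.

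Ibsp, of the bone markers, and Mmp13, of the list of breakdown genes, were high in the same 2 muscles as Col12a1 and Col11a1, and were chosen after their values were seen. Ibsp, a bone matrix protein, stood at 6.85 in tibialis anterior and 5.49 in supraspinatus, against 2.16 to 3.77 in the other 7 muscles. Over the 9 cartilage and bone markers the median deviation from their own means was -0.02 in tibialis anterior and 0.03 in supraspinatus. Bglap, another of them, stood at 2.92 and 2.71 in these 2 muscles, against 2.52 to 3.43 elsewhere, values near or below the array medians. Mmp13, a collagenase of cartilage and bone, stood at 7.82 in tibialis anterior and 6.73 in supraspinatus, against 2.22 to 3.87 in the other 7. Mmp13 was not alone in its list. Over the 13 genes of the breakdown list the median deviation was 0.34 in tibialis anterior and 0.24 in supraspinatus, against -0.49 to 0.14 elsewhere. The part of Ibsp and Mmp13 in the levels of Col12a1 and Col11a1 was not tested.

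Slow fibre genes were highest in soleus (10.55). The part of these cell types in the collagen differences was not tested.

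Value range moved with the collagens too. On the narrower arrays 41 of 44 collagens were higher than on the wider ones, with a median difference of 0.40, against 58.3% and 0.07 over all genes. Col6a3 differed by 0.83 and Col6a6 by 0.79. The exceptions were Col12a1 (-0.61), Col11a1 (-0.17) and Col20a1 (-0.14). Endothelial markers had a median difference of -0.58 and myeloid markers of 0.51 in the same contrast. Hindlimb has 2 narrower arrays, shoulder and forelimb 1 and head none.

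Genes that make, cut, bind and degrade collagen were described from lists of pathway genes. No gene of any list was called in any of the 3 comparisons, in which 2, 1 and 0 of all 22180 genes were called. For hindlimb minus head, the genes for trimming and crosslinking collagen had 11 of 12 positive differences (91.7%), with a median of 0.27. Over all genes these figures were 55.0% and 0.04. On the wider arrays 8 of 12 were positive, with a median of 0.21, against 10967 of 22180 and 0.0 over all genes. All 12 were higher on the narrower arrays than on the wider ones, against 58.3% of all genes. Lox, which starts the crosslinks, had 5.04, 5.43, 4.97 and 4.74 in hindlimb muscles and 3.73 and 4.66 in head muscles. Its hindlimb values were all above the head, the closest being gastrocnemius (4.74) against digastric (4.66). The difference was 0.85 (limma adjusted p = 0.382), that of its relative Loxl3 was 0.67 (0.381) and that of the propeptide protease Bmp1 was 0.40 (0.458).

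Folding and hydroxylation genes had 12 of 18 positive differences (66.7%) and a median of 0.08, near the 55.0% and 0.04 of all genes. Serpinh1, the collagen chaperone, differed by 0.32, and Tmem38b, a channel of the endoplasmic reticulum, by -1.08 (-0.45 on the wider arrays). For the breakdown list 9 of 13 were positive (69.2%, against 55.0% of all genes), with a median of 0.42. This list holds protease inhibitors of the Timp family as well as proteases, so its count mixes genes that degrade collagen with genes that limit degradation. Mrc2, a receptor that takes up collagen for degradation, averaged 5.62 in hindlimb and 4.89 in head muscles, a difference of 0.74 (limma adjusted p = 0.36). The protease inhibitors Timp2 and Timp3 differed by 0.44 and -0.78.

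Collagen receptors had 5 of 8 positive differences (62.5%, near the 55.0% of all genes), with a median of 0.15. The integrin subunits Itga1 and Itgb1 differed by -0.74 and -0.66, and by -0.06 and -0.15 on the wider arrays. Fibril-associated matrix genes had 10 of 15 positive (66.7%) and a median of 0.23, with Postn at 1.02, Fn1 at 0.77 and Aspn at -0.81. Basement membrane partners of type IV collagen, such as laminins, had 7 of 10 positive (70.0%) and a median of 0.14, with Lamb1 at 0.41.

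In the other comparisons, the trimming and crosslinking list had 7 of 12 positive for hindlimb minus shoulder and forelimb (median 0.05) and 10 of 12 for shoulder and forelimb minus head (0.24). Over all genes 48.2% and 55.5% were positive, with medians of -0.01 and 0.04. The folding list had medians of -0.03 and 0.06, and the breakdown list 0.00 and 0.42, in the same order of comparisons. The receptor list had 0.01 and 0.09, the fibril-associated list -0.02 and 0.16, and the basement membrane partners -0.02 and 0.07. Fmod, a proteoglycan on collagen fibrils, differed by 1.20 between hindlimb and shoulder and forelimb muscles (SE 0.58, limma adjusted p = 1.0). It had 8.10, 8.12, 8.64 and 8.01 in hindlimb muscles and 5.57, 7.59 and 7.88 in shoulder and forelimb muscles, trapezius being far below the rest.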

How the data were processed

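The authors deposited 1 log2 expression value for each probe set and array. They used GCRMA, per the submitters' processing notes, which give no version. It models background from the probes' bases and brings arrays to a common scale. No detection calls were used. Of 41345 probe sets, 23521 named 1 gene, 1814 several and 16010 none. Symbols were updated through Entrez identifiers to a GRCm38.p6 gene table (23328 matched, 193 not), and 1082 genes had several probe sets, of which the one with the highest mean was kept. One probe set that names Col6a1 together with other genes was left out. All 9 arrays entered 1 fit of 3 region means in limma 3.58.1 (R 4.3.3; lmFit and eBayes, 6 residual degrees of freedom), with two-sided contrasts and Benjamini-Hochberg adjustment over 22180 genes at 0.05. The procedure was tested on simulated data. With these arrays their number limits the precision. Every collagen could be named, and per comparison the 6 with the largest moderated statistic were given in full. Of each of 20 gene lists, up to 3 genes per comparison could be named. Of 186 list entries 11 were not measured. The members and lists were chosen with earlier results of these data known. Each array was left out in turn. The fit was also repeated after median centring, after cyclic loess or quantile normalization, without dim genes, with averaged probe sets, with limma's trend and robust options, on the compared arrays alone, with the value range as a block, and on the wider arrays alone. Promoter windows come from RefSeq (GRCm38.p6).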

Additional observations from a re-analysis of the deposited data

Results flagged for a closer look

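Among the 4 hindlimb arrays, the gap between 1 value and its nearest neighbour, as a share of the whole range, exceeded Dixon's critical value for 4 of the 44 collagens tested. Chance flags about 1 in 20 groups. Col6a1 in rectus femoris was at 8.41, Col7a1 in rectus femoris at 4.84 and Col14a1 in rectus femoris at 5.89, each above the other hindlimb muscles. Col10a1 in gastrocnemius was at 3.59, also above the others. Both muscles are on narrower arrays.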

How the results depend on the processing

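No paired analysis was possible because the labels give the regions no shared replicate numbers. No collagen was called in any comparison under the 18 alternative settings, and the 320 values of the leading collagens kept their direction, with a lowest limma adjusted p of 0.141. Set against the spread between arrays, itself larger than some of the medians, 214 of 216 type medians moved by less. The others were the hindlimb minus head median of the other collagens, 0.15 on the wider arrays alone against 0.35, and the shoulder and forelimb minus head median of the fibrillar collagens, which ran from -0.09 (without masseter) to 0.65 (without digastric). The count of all genes called in hindlimb minus head was 1 under median centring, trend and robust settings, only the arrays compared, value range as a block and wider arrays alone, against 2. With 1 array left out it ran from 0 (without masseter) to 19 (without soleus), with 4 without digastric. In shoulder and forelimb minus head that count ran from 0 to 4 (without digastric). In hindlimb minus head the fibrillar median ran from 0.28 (without masseter) to 0.74 (without digastric). With the value range as a block the type IV median was 0.11, against 0.29, and the type VI median 0.36, against 0.59. The causes were not tested. With 1 array per muscle, the spread between animals was not measured, and dim genes have no reliable level.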
